A study of Mus musculus with 12 samples.

Results

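The kinesin motor genes of neural stem cells (NSCs) were taken as every gene whose symbol is Kif followed by a number and at most 1 of the letters a to c, or Kifc followed by a single digit. This rule selected 40 of the 45792 genes in the deposited tables. They were divided by known function into 13 mitotic, 17 transport, 6 ciliary and 4 other kinesins. Of the 40 genes, 38 passed the filter on low counts and were tested among 15706 genes. *Kif2b*, a mitotic depolymerase, and *Kif12* had a count of 0 in each of the 12 libraries.

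The libraries came from primary forebrain NSCs of pups 1 to 2 days old, passaged and kept in serum-free medium with EGF and FGF under proliferation conditions. *Ncf1* encodes the p47phox subunit of the NADPH oxidase Nox2, and the study asked what its loss, and the growth factor binding protein Igfbp2, do to NSC fate. The groups were untreated WT (their strain is not given for these cultures, and the adult WT mice of the study were C57BL/6J), *Ncf1*-/- (backcrossed to C57BL/6J) given vehicle and labelled as untreated, and *Ncf1*-/- given mouse recombinant Igfbp2, with 4 libraries each. Igfbp2 was added 48 h after plating and RNA was collected after another 48 h. The labels give its dose as 100 ng/ml, whereas the methods of the paper give a lower one. Igfbp2 was not given to WT cells in these libraries, so that its effect can be read only in the absence of *Ncf1*. Such cultures can hold stem cells and their progeny, and in bulk RNA fewer cells of a type and less RNA per cell cannot be told apart.

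Kinesins are ATP-driven motors that walk along or disassemble microtubules. Mitotic kinesins build the spindle, move chromosomes and complete cytokinesis, and their transcripts are made mainly in G2 and M phase, and they are widely used to gauge how many cells of a culture divide. Transport kinesins carry vesicles, organelles and mRNA along the processes of neurons and glia, and several of them are most abundant in differentiated neural cells. Ciliary kinesins build or shorten the cilium, or relay Hedgehog signals through it.

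Depth was between 18201622 and 34086554 counts per library, and levels are given as CPM, the gene's count per 1000000 counts of the library after TMM scaling. *Ncf1* itself had between 1 and 7 counts in each library of all 3 groups, and its level therefore does not check the genotype. Summed Y-linked transcripts (*Ddx3y*, *Eif2s3y*, *Kdm5d* and *Uty*) were between 105 and 118 CPM in vehicle-treated *Ncf1*-/- and WT replicates 1 to 3, but between 6.47 and 9.15 CPM in WT replicate 4 and the 4 Igfbp2-treated libraries. The paper describes the vehicle- and Igfbp2-treated cultures as pairs from the same pups, which goes against these levels, and the Y-linked signal and the treatment cannot be told apart. WT libraries varied the most (common biological coefficient of variation 0.25, against 0.116 and 0.121 in the *Ncf1*-/- groups). A WT library, replicate 4, carries another treatment in an alternative sample sheet of the accompanying software, so the counts of called genes in the comparisons with WT were also made without it. WT replicate 3 stood apart from the other WT libraries in cell type markers, and the counts were likewise made without that library. With vehicle, 13 of the 38 kinesins exceeded their WT level in the test and 16 fell below it, 13 and 15 without WT replicate 4, and 13 and 17 without WT replicate 3. Over all genes tested, 28.9% were higher and 28.2% lower with all libraries. Without WT replicate 4 these were 4290 and 4554 of 15992 genes, and without WT replicate 3 they were 4907 and 4499 of 15913.

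The makeup of the kinesin transcripts differed between the groups. To compare genes, counts were divided by transcript length and expressed as CPM per kb. In WT the summed mitotic kinesins were 79.1, 83.4, 44.9 and 45.8 CPM per kb in replicates 1 to 4, or 12.2, 12, 7.64 and 7.01% of all kinesin transcripts. In vehicle-treated *Ncf1*-/- NSCs they were 222, 232, 223 and 244 CPM per kb, or 39.3 to 42.4%, and in Igfbp2-treated NSCs 195, 193, 208 and 179 CPM per kb, or 31.3 to 36.8%. The 3 groups did not overlap in this share. WT replicates 1 and 2 lay above replicates 3 and 4, and each *Ncf1*-/- library lay above all 4.

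**Figure D1:**
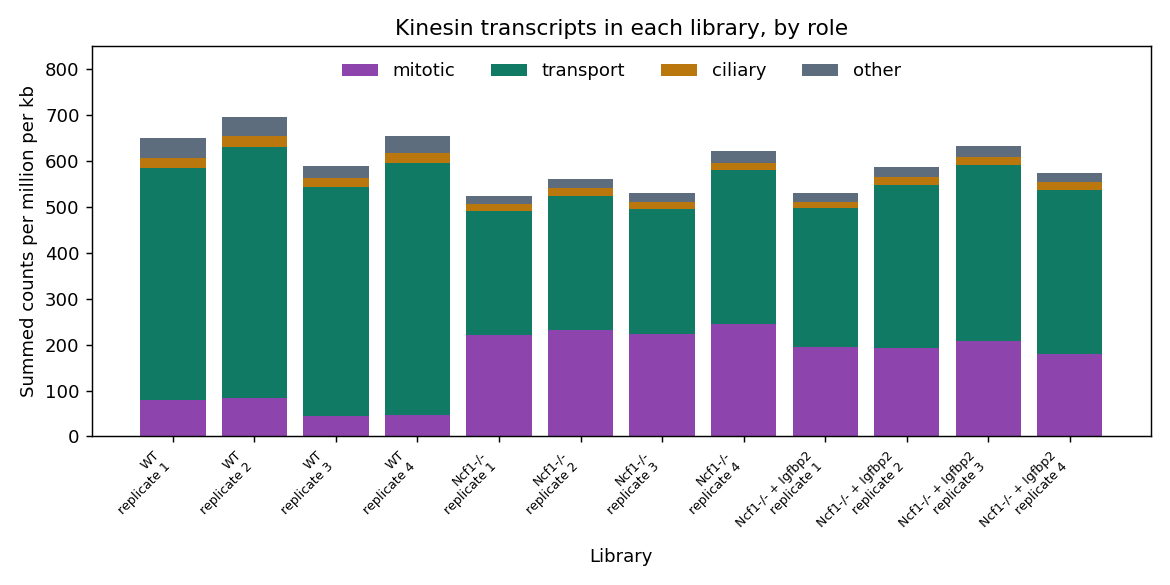
Summed level of kinesin transcripts (y axis, CPM per kb of transcript) in each of the 12 libraries (x axis), stacked by role. The mitotic segment is 44.9 to 83.4 in WT, 222 to 244 in vehicle-treated and 179 to 208 in Igfbp2-treated *Ncf1*-/- NSCs, while the transport segment is highest in WT.

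Transport kinesins made up most of the remainder. They summed to between 498 and 549 CPM per kb in WT, 270 to 335 in vehicle-treated and 301 to 384 in Igfbp2-treated *Ncf1*-/- NSCs. On this per-length scale the order in WT was *Kif1a* (144 ± 11.2, SD, n = 4), *Kif1b* (116.6 ± 5.97), *Kif5b* (58.2 ± 7.0), *Kif21b* (41.6 ± 8.81) and *Kif1c* (38.3 ± 2.41). The ranges of *Kif1a* and *Kif1b* were apart from each other and from that of *Kif5b*, whereas *Kif5b* overlapped *Kif21b* across libraries and *Kif21b* overlapped *Kif1c*. The highest mitotic kinesin in WT, *Kifc1* (10.4 ± 2.81 CPM per kb), ranked 13th of the 40 genes. In vehicle-treated *Ncf1*-/- NSCs *Kif1b* (58.1 ± 9.02) and *Kif1a* (53.5 ± 5.81) overlapped at the top with *Kif5b* (49.6 ± 8.82), and the chromokinesin *Kif22* (36.6 ± 0.474) came 4th, ahead of *Kifc1* (32.6 ± 1.81) and *Kif11* (30.9 ± 2.70).

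The first question was how the mitotic motors respond to the loss of *Ncf1*. All 12 tested mitotic kinesins were higher in *Ncf1*-/- NSCs given vehicle than in WT, with a median log2 fold change of 1.91 (range 1.15 to 2.23). For each of them the lowest *Ncf1*-/- library exceeded the highest WT library. *Kif2a*, which acts in spindles and in growing neurites, was placed among the other kinesins and is not in this count. Its groups overlapped and it was not called (log2 −0.20). Over all 15706 genes tested, 57.2% were called in this comparison, 28.9% as higher and 28.2% as lower, 51.2% had groups that did not overlap (26.2% with *Ncf1*-/- entirely above WT), and the median log2 fold change was 0.02. The count of 12 was unchanged without WT replicate 4 (median 1.70) or without WT replicate 3 (median 1.77), and under the test that the study itself ran on TPM, a level per transcript length that RSEM scales to a common total.

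Motors of the spindle poles rose together. *Kif11*, the kinesin-5 that slides antiparallel microtubules apart to separate the poles, was measured at 47.1, 48.2, 24.7 and 25.0 CPM in WT and at 135, 140, 137 and 162 CPM in vehicle-treated *Ncf1*-/- NSCs. It rose 3.97-fold (log2 1.99 ± 0.21, SE, adjusted p = 4.31e-06, edgeR's quasi-likelihood test with Benjamini-Hochberg adjustment). *Kif15*, which helps to keep the spindle bipolar, rose 3.61-fold from between 10.6 and 21.2 to between 48.4 and 68.0 CPM. *Kifc1*, a minus-end motor that focuses the poles, rose 3.19-fold from between 13.3 and 24.9 to between 60.4 and 64.0 CPM. Reads of *Kifc1* may be shared with its near-identical copies *Kifc5b* and *Kifc5c-ps*, and the 3 summed gave a log2 fold change of 1.63, against 1.67 for *Kifc1* alone. Each of these motors had WT libraries in a higher and a lower pair, as the sums had.

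Motors that act on chromosomes and on microtubule ends rose as much. *Kif18a*, a kinesin-8 that damps the oscillation of chromosomes, was at 11.4, 9.42, 6.24 and 6.92 CPM in WT and at 36.7, 40.4, 35.5 and 40.6 CPM in vehicle-treated *Ncf1*-/- NSCs, a 4.53-fold difference (log2 2.18 ± 0.16, adjusted p = 2.57e-07). *Kif22* rose 4.33-fold, to between 67.7 and 70.0 CPM, and the other chromokinesin, *Kif4*, which is X-linked, rose 3.72-fold. *Kif2c*, the depolymerase that corrects faulty attachments of chromosomes, rose 3.56-fold. *Kif18b*, which shortens astral microtubules, had the smallest rise of the group, 2.23-fold (log2 1.15 ± 0.19, adjusted p = 0.000205), from 24.4, 30.1, 15.6 and 13.7 to 43.3, 47.9, 46.9 and 47.9 CPM.

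The motors of the central spindle and of cytokinesis included the largest rise. *Kif23*, the motor subunit of centralspindlin, was at 10.5, 10.4, 5.995 and 5.29 CPM in WT and at 35.7, 38.6, 34.1 and 41.5 CPM in vehicle-treated *Ncf1*-/- NSCs (4.68-fold, log2 2.23 ± 0.20, adjusted p = 1.23e-06). *Kif20b*, which acts late in abscission, rose 4.20-fold, and *Kif20a*, which brings the chromosomal passenger complex to the midzone, rose 3.79-fold. *Kif14*, which recruits citron kinase, rose 2.87-fold. The interval of *Kif18b* (95% CI 0.74 to 1.57) lay below those of *Kif23* (1.80 to 2.65), *Kif18a*, *Kif22* and *Kif20b*, and the intervals of all other pairs in the group overlapped.

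**Figure D2:**
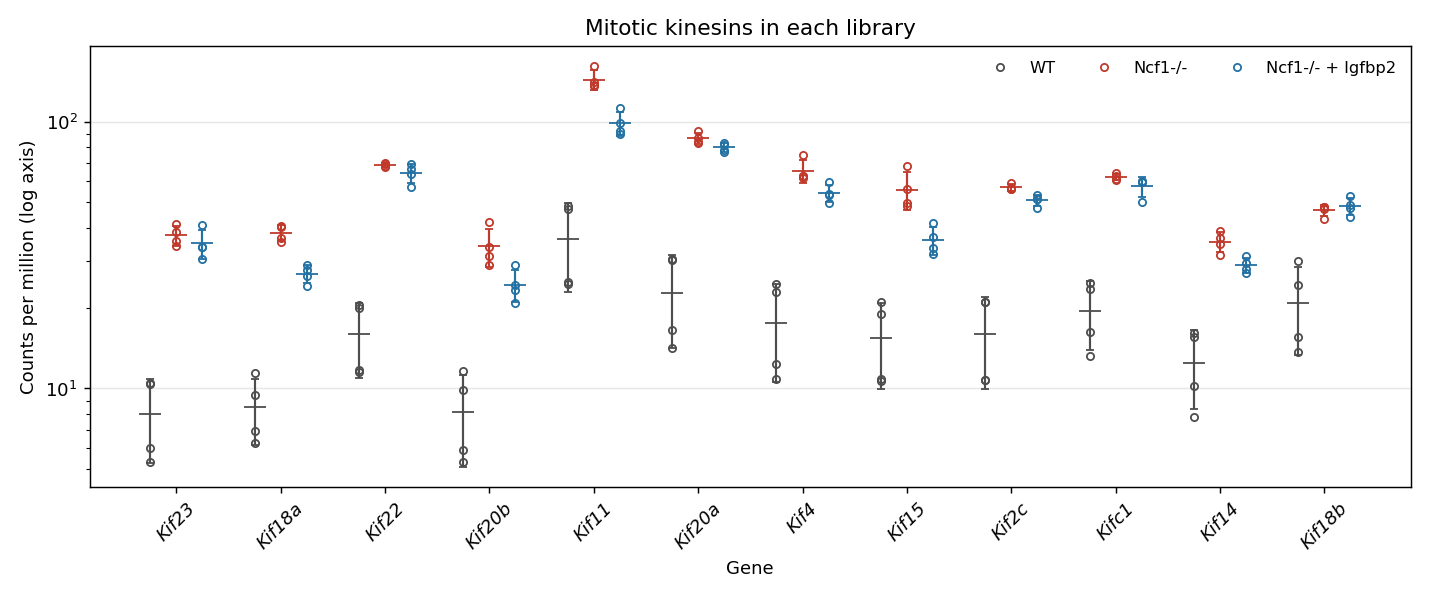
Level of the 12 tested mitotic kinesins (x axis) in CPM on a log axis (y axis), with a circle per library and the mean with SD of the 4 libraries of each group. For each gene the vehicle-treated *Ncf1*-/- libraries lie above the WT libraries, while the Igfbp2-treated libraries lie close to or just below the vehicle-treated ones.

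Because these genes moved together, their promoters were examined for the elements that are known to time transcription to G2 and M phase. One is the cell cycle genes homology region (CHR), searched here as TTTGAA on either strand (TTCAAA when read on the other), to which the MuvB complexes bind. The other is the CCAAT box (ATTGG on the other strand), bound by NF-Y. RefSeq promoters (GRCm38.p6) of 300 bases, 250 before the annotated start and 50 from it on, were matched by symbol for 32 of the 40 kinesins, and distances are counted from the start base as 0. The following 120 bases, from 100 before the start to 19 after it, show 6 mitotic kinesins with a CHR hexamer near the start and 3 transport kinesins that were lower in *Ncf1*-/- NSCs and hold neither motif in this window. Capitals mark the CHR hexamers and CCAAT boxes.
Kif11, chr19:37376282-37376401, plus strand: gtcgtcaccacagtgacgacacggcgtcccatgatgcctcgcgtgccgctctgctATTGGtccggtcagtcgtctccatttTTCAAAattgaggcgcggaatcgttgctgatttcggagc
Kif22, chr7:127042401-127042520, minus strand: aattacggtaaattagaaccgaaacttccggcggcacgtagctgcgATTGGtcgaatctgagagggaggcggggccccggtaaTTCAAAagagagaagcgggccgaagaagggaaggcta
Kif15, chr9:122950981-122951100, plus strand: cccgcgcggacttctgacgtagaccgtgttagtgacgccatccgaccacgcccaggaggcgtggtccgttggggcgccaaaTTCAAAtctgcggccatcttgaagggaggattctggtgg
Kif18b, chr11:102925105-102925224, minus strand: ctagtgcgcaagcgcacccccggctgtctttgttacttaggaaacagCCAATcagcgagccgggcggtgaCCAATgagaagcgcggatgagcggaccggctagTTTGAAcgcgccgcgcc
Kif23, chr9:61946780-61946899, minus strand: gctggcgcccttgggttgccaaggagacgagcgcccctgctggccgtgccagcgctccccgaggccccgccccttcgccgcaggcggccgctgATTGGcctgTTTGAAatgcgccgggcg
Kifc1, chr17:33890614-33890733, minus strand: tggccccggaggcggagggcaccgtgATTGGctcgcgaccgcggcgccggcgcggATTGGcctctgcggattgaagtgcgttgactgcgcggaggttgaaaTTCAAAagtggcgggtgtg
Kif5c, chr2:49619186-49619305, plus strand: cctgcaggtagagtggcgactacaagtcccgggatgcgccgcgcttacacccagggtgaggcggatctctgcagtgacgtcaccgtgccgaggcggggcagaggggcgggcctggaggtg
Kif21a, chr15:91049932-91050051, minus strand: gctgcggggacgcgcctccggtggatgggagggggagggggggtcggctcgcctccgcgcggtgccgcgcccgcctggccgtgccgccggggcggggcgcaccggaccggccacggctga
Kif1c, chr11:70700448-70700567, plus strand: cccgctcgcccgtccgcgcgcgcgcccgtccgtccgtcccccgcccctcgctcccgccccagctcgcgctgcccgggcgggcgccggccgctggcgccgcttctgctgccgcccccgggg

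A CHR hexamer was found in 10 of the 11 matched mitotic kinesins that were tested, *Kif18a* being the exception, against 1 of 11 matched transport kinesins and 20.2% of all 27025 genes with a promoter of this length in the table. In *Kif11* and *Kif15* it began 19 bases before the start, in *Kif22* 17 bases before it, and in *Kifc1*, *Kif23*, *Kif18b* and *Kif4* 1, 2, 3 and 19 bases after it. Within 30 bases of the start 8 of the 11 mitotic kinesins held the hexamer, against 3.72% of all these genes. A CCAAT box was present in 7 of the 11 mitotic and 3 of the 11 transport kinesins, against 41.1% of all these genes. Outside the mitotic group, the hexamer lay in 1 of the 2 *Kif1a* promoters, in *Kif27* and in *Kif26b*, whose level fell in *Ncf1*-/- NSCs. These are matches of letters in sequences chosen with the levels known, and binding was not measured. No hexamer found in a kinesin overlapped a CCAAT box.

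**Figure D3:**
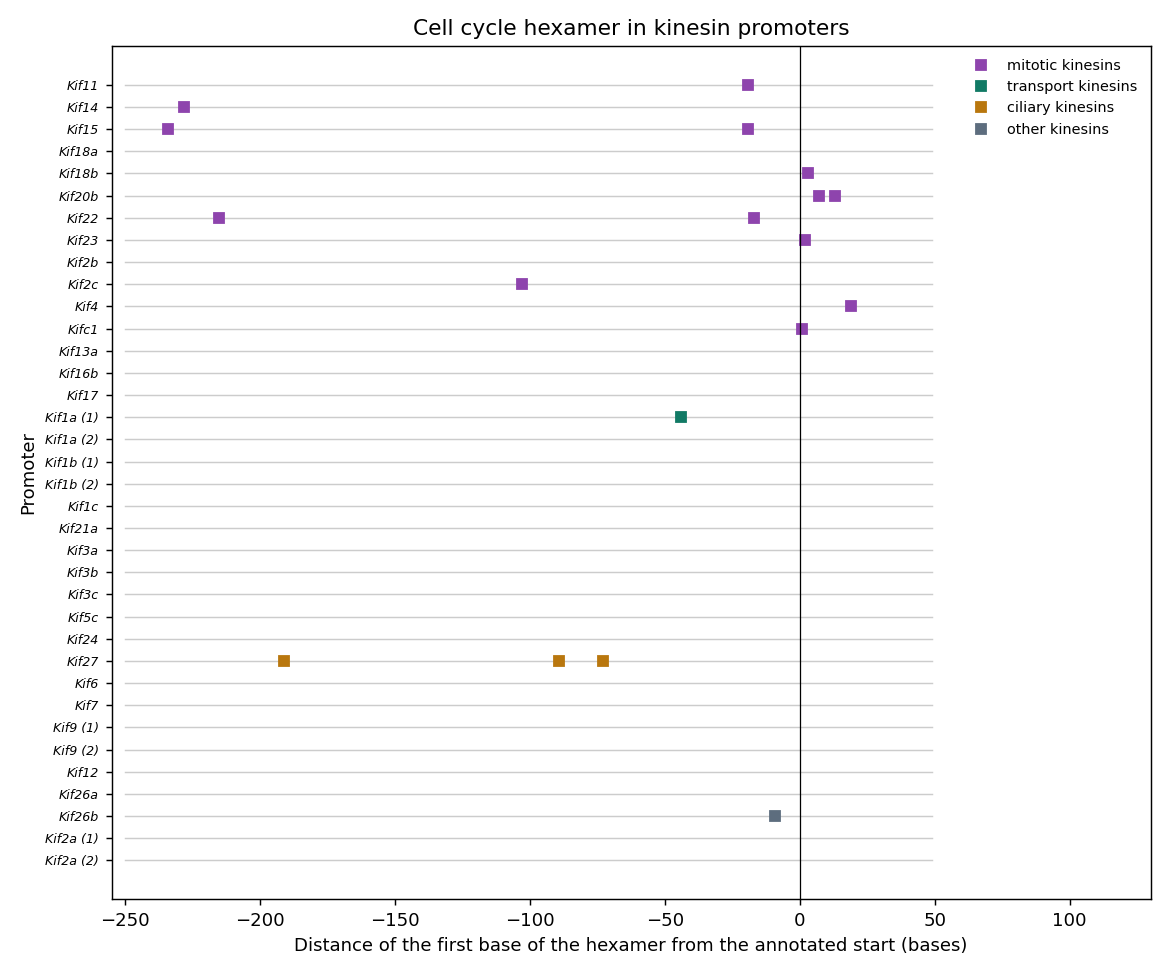
Position of the cell cycle hexamer (squares, x axis, bases from the annotated start) in each matched kinesin promoter (y axis, numbered where a gene has more than 1), coloured by role, with grey lines for the 300 bases searched. Squares cluster around the start in the mitotic kinesins, where 8 of 11 tested genes have one within 30 bases, and are nearly absent from the transport kinesins.

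The transport motors moved the other way. Of 17 transport kinesins, 12 were lower in *Ncf1*-/- NSCs given vehicle than in WT, none was called higher, and 5 were not called. Over all genes tested, 28.2% were called lower and 28.9% higher. The median log2 fold change of the 17 was −0.74 (range −2.57 to −0.0015). All 17 fold changes were below 0, and for 11 genes the groups did not overlap, against 25.1% of all genes tested with *Ncf1*-/- libraries entirely below WT. Without WT replicate 4, 11 were called lower (median −0.77), and 13 without WT replicate 3 (median −0.69). The study's test called 7 transport kinesins lower, against 2058 of 27880 genes. Scaling by library totals gave a median of −0.56 while moving the median of all genes to 0.19.

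Kinesin-1 heavy chains, which carry most axonal cargo, split by paralog. *Kif5a*, found mainly in neurons, was at 22.6, 22.1, 15.2 and 20.7 CPM in WT and at 3.66, 3.24, 3.62 and 3.06 CPM in vehicle-treated *Ncf1*-/- NSCs, a 5.92-fold lower level (log2 −2.57 ± 0.14, adjusted p = 4.95e-08). *Kif5c*, also enriched in neurons, was at 39.6, 45.6, 27.3 and 34.3 against 5.92, 7.93, 8.79 and 10.2 CPM, a 4.46-fold lower level (log2 −2.16 ± 0.19, adjusted p = 9.85e-07). Neither gene's groups overlapped. The ubiquitous *Kif5b* was at 322, 305, 245 and 286 CPM against 212, 231, 228 and 290 CPM, the groups overlapped, and the difference was not called (log2 −0.27, 95% CI −0.53 to −0.01, adjusted p = 0.0681). Per kb, *Kif5b* accordingly made up 80.8 to 83.8% of the kinesin-1 heavy chain transcripts in WT and 93.2 to 95.6% in vehicle-treated *Ncf1*-/- NSCs.

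Kinesin-3 motors, which carry synaptic vesicle precursors, mitochondria and endosomes, held the highest levels of all kinesins. *Kif1a* was at 908, 1036, 916 and 1054 CPM in WT and at 333, 358, 320 and 413 CPM in vehicle-treated *Ncf1*-/- NSCs, 2.75-fold lower (log2 −1.46 ± 0.12, adjusted p = 5.92e-07). *Kif1b* was at 809, 879, 813 and 879 against 377, 410, 379 and 517 CPM, 2.01-fold lower (log2 −1.01 ± 0.12, adjusted p = 1.29e-05). In both genes all 4 WT libraries were well above the *Ncf1*-/- libraries. *Kif13a* and *Kif13b* were 1.67-fold and 1.68-fold lower, and *Kif1c* 1.34-fold lower, without overlap. The study's test on TPM did not call *Kif13a* (adjusted p = 0.0924), and *Kif1c* was called neither there (0.366) nor by limma on log2(TPM + 1) (0.139) or log2(TPM + 0.1) (0.145). *Kif16b*, which positions early endosomes, was not called (log2 −0.19, 95% CI −0.47 to 0.09).

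Of the kinesin-4 motors that restrain microtubule growth in neurons, *Kif21a* was 2.61-fold lower (137, 159, 122 and 127 against 49.5, 53.6, 49.98 and 56.2 CPM, adjusted p = 1.02e-06) and *Kif21b* 2.34-fold lower (350, 320, 286 and 452 against 139, 155, 141 and 167 CPM, adjusted p = 8.76e-06). Their groups were apart. Kinesin-2, which carries cargo in axons and into the cilium, changed little. *Kif3a* was 1.33-fold lower (adjusted p = 0.000399), a call lost by limma on log2(TPM + 1) (0.146) and log2(TPM + 0.1) (0.153) and in the test of the study (0.366), whereas *Kif3b* (log2 −0.07, 95% CI −0.27 to 0.12), *Kif3c* (−0.0015, −0.21 to 0.21) and *Kif17* (−0.08, −0.69 to 0.53) were not called. The minus-end motors *Kifc3* and *Kifc2* were 1.74-fold and 1.42-fold lower, and the study's test did not call *Kifc3* (adjusted p = 0.0831). For *Kifc2* the groups overlapped and the call was lost without WT replicate 4 (adjusted p = 0.0768), vehicle-treated replicate 3 (0.0747) or vehicle-treated replicate 4 (0.066), by library totals, in the fit of these 2 groups alone and on the TPM scales.

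**Figure D4:**
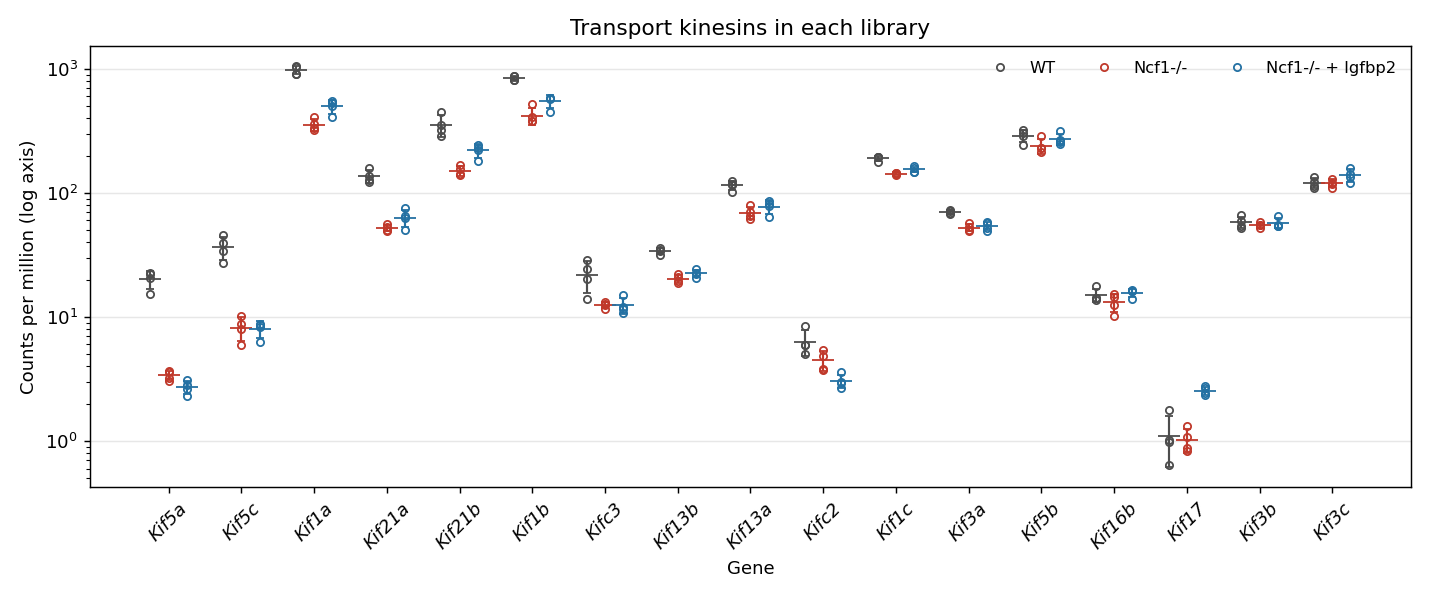
Level of the 17 transport kinesins (x axis, ordered by the fold change between vehicle-treated *Ncf1*-/- and WT) in CPM on a log axis (y axis), with a circle per library and the mean with SD of the 4 libraries of each group. *Kif5a*, *Kif5c*, *Kif1a*, *Kif21a*, *Kif21b* and *Kif1b*, at the left, have WT libraries clear of the others, and *Kif17* is highest in the 4 Igfbp2-treated libraries.

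The ciliary kinesins did not move as a group, with 1 of 6 called higher, 2 lower and 3 not called, against 57.2% of all genes called (28.9% higher and 28.2% lower). The counts were the same without WT replicate 3 or 4. *Kif19a*, which shortens motile cilia, was at 18.5, 18.1, 6.97 and 18.2 CPM in WT and at 2.44, 2.71, 2.83 and 1.83 CPM in vehicle-treated *Ncf1*-/- NSCs, 6.28-fold lower (log2 −2.65 ± 0.29, adjusted p = 7.07e-06). WT replicate 3 lay far below its 3 companions, yet above each *Ncf1*-/- library. *Kif7*, a regulator of Hedgehog signalling, was 1.26-fold lower (adjusted p = 0.0166) with overlapping groups, and was not called by library totals or on the TPM scales. *Kif6* (log2 −0.40, 95% CI −0.85 to 0.05), *Kif9* (0.02, −0.66 to 0.71) and *Kif27* (−0.29, −1.03 to 0.44) were at low levels, at most 3.44 CPM in any library, and were not called.

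*Kif24*, which acts with CP110 to hold back the growth of the primary cilium in cycling cells, was the one ciliary kinesin that rose. It was at 11.6, 12.5, 9.30 and 8.75 CPM in WT and at 15.9, 17.7, 15.0 and 20.2 CPM in vehicle-treated *Ncf1*-/- NSCs, 1.64-fold higher (log2 0.71 ± 0.13, adjusted p = 0.000464). On the TPM scale, which divides by transcript length, the difference was smaller and was not called (log2 0.32, adjusted p = 0.126, limma on log2(TPM + 1)). The abundance-weighted transcript length that RSEM assigned to *Kif24* was 1910, 1939, 1791 and 2023 bases in WT, 2525, 2446, 2162 and 2588 bases in vehicle-treated and 2695, 2669, 2779 and 2456 bases in Igfbp2-treated *Ncf1*-/- NSCs. The gene has 8 annotated transcripts of 623 to 5593 bases, so that a longer mean is a larger part assigned to the long ones.

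This length difference (log2 0.34 ± 0.06, adjusted p = 0.0175, limma on log2 length) made *Kif24* the only 1 of 23 kinesins tested for length that was called, against 3.11% of the 8294 genes tested. Between Igfbp2-treated *Ncf1*-/- and WT NSCs it was again called (log2 0.47, adjusted p = 0.00328, against 4.22% of genes). None of the 23 was called between the treatments with limma, against 1.78% of genes. Without WT replicate 3 the number called was 3 in each comparison with WT, and without WT replicate 4 it was 1 in each. *Kif19a* was nearest to the threshold otherwise, with shorter transcripts in *Ncf1*-/- NSCs (log2 −0.61, adjusted p = 0.0546).

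The largest falls in counts were in *Kif26a* and *Kif26b*, unusual kinesins without ATPase activity. *Kif26a* was at 118, 106, 22.2 and 82.8 CPM in WT and at 3.18, 4.16, 5.43 and 5.41 CPM in vehicle-treated *Ncf1*-/- NSCs, 18.0-fold lower (log2 −4.17 ± 0.43, adjusted p = 4.11e-06). *Kif26b* was at 14.3, 14.7, 22.6 and 11 against 1.09, 0.726, 0.927 and 1.12 CPM, 16.1-fold lower (log2 −4.01 ± 0.31, adjusted p = 3.89e-07). No library of one group reached the other in either gene. WT replicate 3 was lowest in WT for *Kif26a* and highest for *Kif26b*, and with each library left out in turn the 2 log2 fold changes stayed between −4.48 and −3.77. On log2(TPM + 1), a scale that understates the change of genes at low levels, *Kif26a* again fell the most (−2.52). There *Kif26b* (−1.003) fell less than *Kif5c* (−1.54), *Kif1a* (−1.37), *Kif19a* (−1.29), *Kif5a* (−1.24), *Kif21a* (−1.20) and *Kif21b* (−1.06). The study's test did not call *Kif26b* (adjusted p = 0.0521). *Kif2a*, a depolymerase of both spindles and growing neurites, was not called (log2 −0.20, 95% CI −0.50 to 0.09).

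The partners of the motors were compared in the same fit. All 14 spindle and midzone genes tested were higher in vehicle-treated *Ncf1*-/- NSCs (median log2 1.89), among them *Hmmr* (2.39) and *Birc5* (2.27) at the top. Several bind a kinesin named above, as *Racgap1* (1.87) completes centralspindlin with *Kif23*, *Prc1* (2.22) bundles the midzone to which *Kif4* is recruited, and *Cit* (1.17) binds *Kif14*. *Cenpe*, a kinesin whose symbol lies outside the rule, rose by 1.43. All 4 proliferation genes rose as well (*Mki67* by 1.28, *Pcna* by 1.46, *Top2a* by 1.94 and *Ccnb1* by 2.22). Without WT replicate 3 or 4 the counts of 14 and 4 were the same. With all libraries, 28.9% of all genes tested were higher.

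Of 16 cargo adaptors and light chains, 11 were lower, 2 higher and 3 not called (median −0.32), against 28.2% of all genes lower and 28.9% higher. The largest falls were in *Kif1bp* (−1.11), which binds kinesin-3 and other motors, and *Kidins220* (−1.03), a cargo of kinesin-1, and the rises were in *Klc3* (1.30) and *Rhot2* (0.29). Of 21 dynein and dynactin genes tested, 9 were lower, 2 higher and 10 not called (median −0.16). The part called was smaller than the 57.2% of all genes. The light chain *Dynll2* (−1.58) and the heavy chain *Dync1h1* (−1.49) fell the most, and *Bicd2* (0.45) and *Nde1* (0.35) were higher. Intraflagellar transport genes split, 3 higher (*Ift57* at 0.56, *Ift88* at 0.55 and *Ift80* at 0.42), 1 lower (*Ift122* at −0.21) and 8 not called, a smaller part than the 57.2% called over all genes. Without WT replicate 4 the numbers higher and lower were 1 and 11 for adaptors, 1 and 10 for dynein and dynactin and 3 and 1 for intraflagellar transport, and without WT replicate 3 they were 2 and 9, 2 and 9 and 5 and 0.

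Many markers of differentiated cells were also lower in vehicle-treated *Ncf1*-/- NSCs than in WT. Over all genes tested, 28.2% were lower and 28.9% higher in this comparison. Of 12 oligodendrocyte markers, 10 were lower in vehicle-treated *Ncf1*-/- NSCs and *Olig1* and *Olig2* higher, and the 12 summed to between 3352 and 12190 CPM in WT, 2085 and 2254 CPM in vehicle-treated and 2083 and 2180 CPM in Igfbp2-treated NSCs. Of 7 astrocyte markers, 6 were lower (sums of 6903 to 12200, 2943 to 3429 and 3294 to 4408 CPM). Of 9 neuron markers, 5 were lower, *Dcx* (log2 −3.10) and *Tubb3* (−1.56) among them, while *Rbfox3*, *Snap25*, *Nefl* and *Nefm* were at mean levels of 1.37 to 5.19 CPM in each group and not called (sums of 604 to 777, 491 to 556 and 439 to 472 CPM). Neural stem cell markers split, 3 higher and 5 lower of 10 (sums of 2621 to 8352, 8115 to 8903 and 8258 to 8668 CPM). WT replicate 3 had the lowest oligodendrocyte sum of WT (3352 CPM, others 7412 to 12190) and the highest stem cell sum (8352 CPM, others 2621 to 3929), which alone in WT reached the *Ncf1*-/- range. Without this library 5 stem cell markers were higher and 5 lower, and without WT replicate 4 they were 3 and 5. Of 7 mesenchymal markers 4 were higher and 1 lower, with sums of at most 26.8 CPM in any library, and of 6 microglia markers 1 was tested and *C1qa* was at 0 in every library. The part of these cell types in the levels of the kinesins was not tested.

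The second question was whether Igfbp2 changes the motors in *Ncf1*-/- NSCs. With all 12 libraries in the fit, 5 of 38 kinesins were higher and 2 lower in Igfbp2-treated than in vehicle-treated NSCs, against 25.0% of all genes tested (14.2% higher and 10.7% lower). The mitotic kinesins had a median log2 fold change of −0.22, with 11 of 12 below 0, 2 called lower and none higher. The transport kinesins had a median of 0.17, with 4 called higher and none lower. The median of all genes was 0.04.

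Both called mitotic genes lay below the vehicle-treated libraries without overlap. *Kif15* was at 49.4, 56.1, 48.4 and 68.0 CPM with vehicle and at 31.9, 36.9, 41.5 and 33.7 CPM with Igfbp2, 1.54-fold lower (log2 −0.63 ± 0.20, adjusted p = 0.04). *Kif18a* was at 36.7, 40.4, 35.5 and 40.6 against 29.1, 24.2, 27.7 and 26.4 CPM, 1.43-fold lower (log2 −0.51 ± 0.15, adjusted p = 0.0249). *Kif11*, at 135, 140, 137 and 162 against 90.0, 99.2, 113 and 92.2 CPM, did not overlap either but was not called (log2 −0.54, 95% CI −0.97 to −0.11, adjusted p = 0.0635). In all, 8 of the 12 mitotic kinesins had Igfbp2-treated libraries entirely below the vehicle-treated ones, against 14.7% of all genes (34.0% did not overlap in either direction).

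The number called depended on the libraries in the fit. A fit of the 8 *Ncf1*-/- libraries alone called 7 mitotic kinesins lower (*Kif15*, *Kif11*, *Kif18a*, *Kif20b*, *Kif14*, *Kif4* and *Kif2c*, with log2 fold changes of −0.67 to −0.21). That fit called 2759 of 15101 genes lower, against 1685 of 15706 in the fit of 12 libraries. With the replicate number as a block the same 7 genes were called, and 2560 of 15101 genes were lower. The block follows a pairing that the Y-linked levels go against, so it was not read as separate evidence. The calls of *Kif15* and *Kif18a* were lost in 7 and 5 of the 12 fits with a library left out. None was called without vehicle-treated replicate 1, 2 or 4 or without Igfbp2-treated replicate 2 or 4, and 1 without vehicle-treated replicate 3 or Igfbp2-treated replicate 1. *Kif18b*, *Kif22*, *Kif23*, *Kif20a* and *Kifc1* had fold changes between −0.12 and 0.05 and were not called in either fit.

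Among the transport kinesins, *Kif17*, a homodimeric kinesin-2 that carries glutamate receptors in dendrites, rose from 0.828, 0.872, 1.33 and 1.08 CPM to 2.77, 2.34, 2.44 and 2.65 CPM, 2.47-fold (log2 1.31 ± 0.27, adjusted p = 0.00519). These levels rest on 18 to 54 counts per library, and all 4 Igfbp2-treated libraries exceeded all others. *Kif21b* rose 1.46-fold, from 139, 155, 141 and 167 to 181, 231, 245 and 223 CPM (adjusted p = 0.0137), without overlap. *Kif1a* rose 1.40-fold, from 333, 358, 320 and 413 to 410, 532, 549 and 499 CPM (adjusted p = 0.0106), and *Kif1b* 1.30-fold, from 377, 410, 379 and 517 to 452, 577, 582 and 580 CPM (adjusted p = 0.0342). With each of the 12 libraries left out in turn, the call of *Kif1b* was lost in 8 fits (without WT replicate 2 or 4, vehicle-treated replicate 1, 2 or 3, or Igfbp2-treated replicate 2, 3 or 4), and those of *Kif1a* and *Kif21b* in 3 (without vehicle-treated replicate 3 or Igfbp2-treated replicate 2 or 3). For *Kif1a* and *Kif1b*, vehicle-treated replicate 4 was the highest and Igfbp2-treated replicate 1 the lowest of its group, and there the groups overlapped.

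These rises depended on how the libraries were scaled. On the TPM scale (limma on log2(TPM + 1)), where the median of all genes between the treatments was −0.30, the differences were −0.0048 for *Kif1a*, −9e-04 for *Kif21b* and −0.1148 for *Kif1b*, *Kif17* remained higher (adjusted p = 0.0178), and 11 of 12 mitotic kinesins were called lower. By library totals, where the median of all genes was −0.23, 1 transport kinesin was called higher and 5 mitotic kinesins lower. Of all 15706 genes tested, 200 were called higher and 6154 lower on log2(TPM + 1), and 648 and 5258 by library totals. Relative to the median of all genes, the median of the mitotic kinesins was −0.26 with TMM factors, −0.26 with library totals and −0.34 on the log2(TPM + 1) scale.

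Of the other members, *Kif26b* rose 2.55-fold, from 1.09, 0.726, 0.927 and 1.12 to 1.61, 1.86, 2.44 and 3.98 CPM (log2 1.35 ± 0.32, adjusted p = 0.0106), without overlap, on 15 to 81 counts per library. This call was lost on log2(TPM + 1) (0.06, adjusted p = 0.771, limma), on log2(TPM + 0.1) and in the study's test. *Kif26a* (log2 0.44, 95% CI −0.49 to 1.37), *Kif19a* (0.74, 0.09 to 1.39), *Kif6* (0.57, 0.12 to 1.03) and *Kifc2* (−0.55, −0.96 to −0.14) were not called. Over all genes tested, 14.2% were called higher and 10.7% lower between the treatments. Among the partners, none of the 14 spindle and midzone genes was called, though all 14 fold changes were below 0 (median −0.15). For 7 of the 14 the Igfbp2-treated libraries lay entirely below the vehicle-treated ones, against 14.7% of all genes. The adaptors *Klc3* (1.28) and *Mapk8ip3* (0.73), the latter a link between vesicles and kinesin-1, rose, as did *Dync1h1* (0.78) and *Dctn1* (0.23). Of the intraflagellar genes *Ift172* (0.41) rose and *Ift88* (−0.52) fell. None of the 4 proliferation genes was called (median −0.19), and 2 of them lay entirely below the vehicle-treated libraries. Markers of oligodendrocytes and astrocytes had no call in 12 and 7 genes, whereas the neuron markers *Dcx* (−0.83) and *Tubb3* (−0.61) fell, and 3 of 5 mesenchymal markers rose. Of the neural stem cell markers *Sox1* (0.72) and *Msi1* (0.42) rose and *Hes5* (−1.48) fell. These values of partners and markers come only from the fit with TMM factors. They were not compared on log2(TPM + 1), where the median of all genes was −0.30, and the smaller ones are about the size of that shift.

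**Figure D5:**
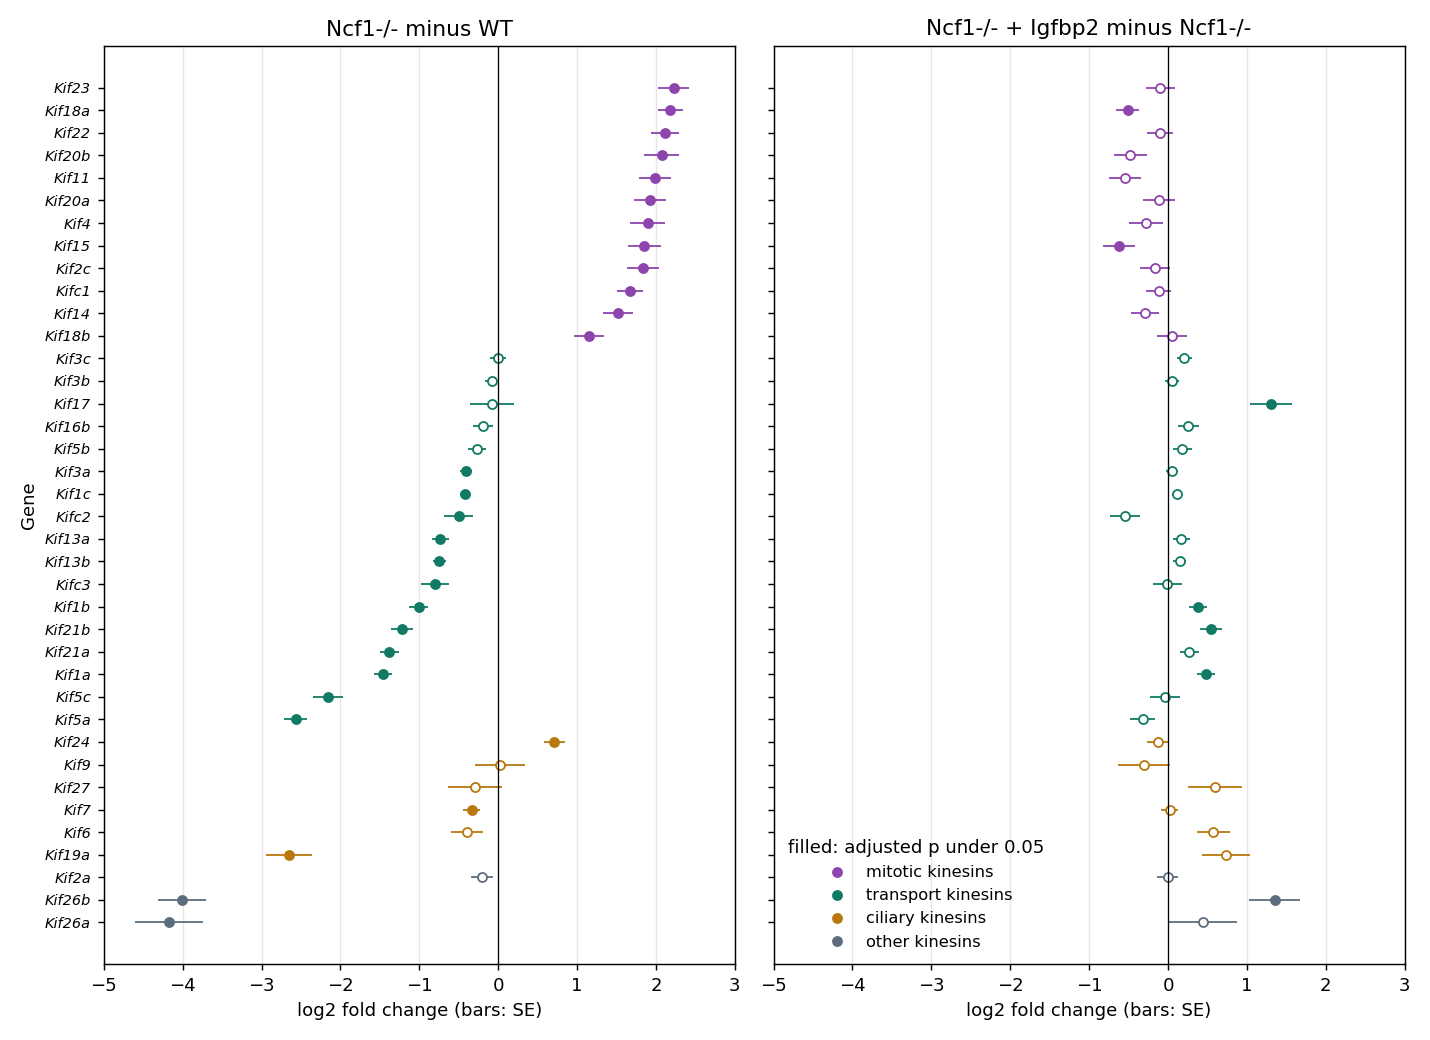
Fold change of the 38 tested kinesins (log2, x axis, with SE) between vehicle-treated *Ncf1*-/- and WT NSCs (left) and between Igfbp2- and vehicle-treated *Ncf1*-/- NSCs (right), grouped and coloured by role and ordered by the left panel, with filled points for adjusted p under 0.05. On the left the 12 mitotic kinesins lie between 1.15 and 2.23 and the 17 transport kinesins between −2.57 and −0.0015, and on the right all points but *Kif17* (1.31) and *Kif26b* (1.35) lie within 1 of zero.

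Between Igfbp2-treated *Ncf1*-/- and WT NSCs, 14 kinesins were higher, 16 lower and 8 not called. All 12 mitotic kinesins were higher in Igfbp2-treated *Ncf1*-/- than in WT NSCs (median log2 1.60, range 1.2 to 2.13), and no library overlapped, against 27.8% of all genes with Igfbp2-treated libraries entirely above WT. The study's test called 6 of the 12 (median 0.98), on a scale where the median of all genes was −0.255. It called 965 of 27880 genes higher and 4627 lower. Relative to the median of all genes, the median of the mitotic kinesins was 1.24 there and 1.61 in the main fit. Of the transport kinesins 12 were lower and 1, *Kif17*, higher (median −0.60), and 11 did not overlap WT from below, against 26.6% of all genes. Without WT replicate 4 12 mitotic kinesins were higher (median 1.39) and 12 transport kinesins lower (median −0.63), and the ciliary counts were 1 higher and 2 lower with or without it. Over all genes 62.4% were called in this comparison, 31.6% higher and 30.8% lower. In a test across the 3 groups 30 of the 38 kinesins were called, against 71.6% of all genes, and *Kif16b*, *Kif3b*, *Kif3c*, *Kif5b*, *Kif27*, *Kif6*, *Kif9* and *Kif2a* were not. This number was 30 without WT replicate 4 and 31 without WT replicate 3. The comparison shares its WT libraries with the first and its Igfbp2-treated libraries with the second, so that the values are given side by side and not as separate evidence.

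For *Kif11* the log2 fold change over WT was 1.99 with vehicle and 1.45 with Igfbp2, for *Kif15* 1.85 and 1.23, and for *Kif18a* 2.18 and 1.67. *Kif23* (2.23 and 2.13), *Kif22* (2.11 and 2.01) and *Kif18b* (1.15 and 1.2) were nearly the same. Below WT, *Kif1a* was at −1.46 and −0.98, *Kif1b* at −1.01 and −0.63 and *Kif21b* at −1.22 and −0.68, while *Kif5a* was at −2.57 and −2.89 and *Kif5c* at −2.16 and −2.19. *Kif26b* was at −4.01 and −2.66 and *Kif26a* at −4.17 and −3.73. *Kif24* remained higher than WT in counts (log2 0.58, adjusted p = 0.00199) but not on the TPM scale (−0.27, adjusted p = 0.166, limma on log2(TPM + 1)).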

How the data were processed

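RNA depleted of rRNA was sequenced from 12 NSC cultures. The authors mapped reads with Bowtie2 to GRCm38 and quantified genes with RSEM, and deposited for each library the expected count per gene without normalization, the TPM, the FPKM (not used) and the abundance-weighted transcript length. In the merged table the deposited values (a score that equalled the TPM times the number of transcripts in 100% of values, within 1%) were not used beyond its gene symbols. Strand use in counting is not given in the sources used here, so overlapping genes cannot be separated. No column lacked a sample.

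Expected counts were rounded and fitted in edgeR 4.0.16 (filterByExpr, TMM, quasi-likelihood test, a mean per group, 12 libraries, Benjamini-Hochberg adjustment over all genes tested, threshold 0.05) in R 4.3.3, instead of the study's test on TPM (ANOVA with Tukey's test), which is an alternative. Values of 95% confidence intervals came from the same fit. Transcript lengths of genes averaging 5 CPM or more were tested with limma 3.58.1 on log2 length. Tests were tried on simulated data. Summed levels per list are sums of CPM. Every kinesin is named, with values per library for the largest changes and highest levels of each role. Of each partner list the 2 largest rises and falls are named, and other partners were named after their values were seen. The members, lists and motifs were chosen with earlier results of these data known.

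The methods of the paper pair the *Ncf1*-/- cultures by pup. With group means removed, cultures with the same number correlated between −0.139 and 0.136 over 4 pairs, and those with different numbers between −0.407 and 0.443. Replicates are separate cultures. No 2 libraries of a group agreed within sampling noise. Alternatives were DESeq2 1.42.0, library totals, no filter, a filter at a mean of 5 CPM, fits of the compared groups alone, the replicate block, a threshold of 0.01, limma on log2(TPM + 1) and log2(TPM + 0.1), the study's test, each library left out in turn and, chosen after seeing the data, *Kifc1* summed with its copies and the counts of all lists without WT replicate 3 or 4.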

Additional observations from a re-analysis of the deposited data

Results flagged for a closer look

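Dixon's criterion was applied to the CPM of the 38 tested kinesins in each group of 4 libraries. It marked 10 of 114 sets of 4 values, where chance marks about 1 in 20. Among the mitotic kinesins, vehicle-treated *Ncf1*-/- replicate 4 was highest for *Kif2c* (58.9 CPM, others 55.7 to 56.2) and *Kif4* (75.0 CPM, others 61.5 to 62.6), and Igfbp2-treated replicate 4 was lowest for *Kifc1* (49.8 CPM, others 59.4 to 60.0). Among the transport kinesins, Igfbp2-treated replicate 1 was lowest for *Kif16b* (14.0 CPM, others 16.3 to 16.4) and *Kif1b* (452 CPM, others 577 to 582), and Igfbp2-treated replicate 3 was highest for *Kif3b* (64.9 CPM, others 53.7 to 55.2). In WT, replicate 1 was lowest for *Kif1c* (178 CPM, others 195 to 196) and replicate 3 highest for *Kif16b* (17.8 CPM, others 13.7 to 14.3). WT replicate 3 was also lowest for *Kif19a* (6.97 CPM, others 18.1 to 18.5) and highest for *Kif9* (3.44 CPM, others 1.28 to 1.51). For *Kif19a* the fall in *Ncf1*-/- NSCs held with each library left out, with log2 fold changes between −2.90 and −2.55.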

How the results depend on the processing

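The rise of 12 mitotic kinesins between vehicle-treated *Ncf1*-/- and WT NSCs was called under each alternative. Transport kinesins called lower there fell to 7 (9 of all kinesins) in the study's test, which called 2058 of 27880 genes lower. Their median was −0.56 by library totals, −0.55 on log2(TPM + 1) and −0.54 in the study's test, with −0.83 to −0.67 over libraries left out in turn.

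Between the treatments, DESeq2 called 4 kinesins lower, 1 of them a transport kinesin. Library totals called 2 higher and 8 lower (mitotic 5 lower, transport 1 higher and 2 lower), with medians of −0.49 for mitotic and −0.10 for transport kinesins. A mean of at least 5 CPM left 3 higher, 2 of them transport kinesins. The fit of only these groups and the replicate block each called 8 lower (mitotic 7, transport 1), both called *Kif19a* higher besides, and the block *Kif26a* as well. At a threshold of 0.01, 1 was higher, a transport kinesin, and 0 lower (mitotic 0). On log2(TPM + 1), 1 was higher (transport 1) and 13 lower (mitotic 11, transport 1), with medians of −0.64 and −0.25. On log2(TPM + 0.1), 1 was higher (transport 1) and 13 lower (mitotic 10, transport 2), with medians of −0.74 and −0.31. The study's test called 0 higher (transport 0) and 4 lower (mitotic 4), with medians of −0.63 and −0.23. Of all 15706 genes tested, library totals called 648 higher and 5258 lower, log2(TPM + 1) 200 and 6154, and log2(TPM + 0.1) 165 and 6354. Of the same 15706 genes, DESeq2 called 2442 higher and 1845 lower, and the threshold of 0.01 left 884 and 630. With a mean of at least 5 CPM, 1424 of 11170 genes were higher and 1345 lower. The study's test called 64 of 27880 genes higher and 2085 lower. The fit of only these groups and the replicate block called 2950 and 2874 of 15101 genes higher, and 2759 and 2560 lower. The called rises turned to −0.0048 and −0.0056 for *Kif1a*, to −9e-04 and −0.0029 for *Kif21b* and to −0.1148 and −0.1177 for *Kif1b* on the 2 log2(TPM) scales, and to −0.1078 for *Kif1b* in the study's test. With libraries left out in turn, 2 to 6 kinesins were higher and 0 to 4 lower (mitotic 0 to 3 lower, transport 1 to 4 higher and 0 to 1 lower).

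Between Igfbp2-treated and WT NSCs, 0 transport kinesins were higher with a mean of at least 5 CPM, which leaves *Kif17* out, and 1 to 2 over libraries left out. Medians of mitotic and transport kinesins were 0.97 and −0.78 on log2(TPM + 1) and 0.98 and −0.76 in the study's test, and −0.998 for transport kinesins on log2(TPM + 0.1). The medians of all genes on these 3 scales were −0.25, −0.255 and −0.40. The study's test called 6 higher (mitotic 6, transport 0), against 965 of 27880 genes higher and 4627 lower. *Kif24* turned to −0.274, −0.3408 and −0.2641 on the 2 log2(TPM) scales and in the study's test. Kinesins called for length with libraries left out numbered 1 to 3 in each comparison with WT and 0 to 1 between the treatments.

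Values that were called neither in the main fit nor in the alternative, given no direction here, had the other sign in 110 instances, each with a main log2 fold change of at most 0.44 in size. The cause of a changed count was not tested. With 4 libraries a group, differences under about the printed confidence intervals could not be resolved, and genes such as *Kif27* and *Kif17* rest on few counts.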
